A study of Canis lupus familiaris with 6 samples.

Results

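The genes described here encode the activin, TGF-beta and BMP ligands INHBA, INHBB, TGFB1, TGFB2, TGFB3, BMP2 and BMP4, the ligand-binding antagonists FST and FSTL3, and the coreceptor TGFBR3. They were chosen by name, with the differences of these same arrays already known, and every probe set annotated with exactly 1 of these 10 symbols was taken. This gave 15 of 42924 probe sets (groups of short probes that report 1 transcript value) and 9 of the 10 genes. No probe set carried the symbol FSTL3, which was not analysed here.

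Transcript levels were measured on Affymetrix canine arrays in MDCKII, an established dog kidney epithelial line that forms polarized sheets. In the 3D group (3 arrays) the cells were forming cysts on Matrigel, an extract of basement membrane, spread at 100 µl per 60 mm dish, with 2% Matrigel also in the medium. In the 2D group (3 arrays) they had grown as a flat polarized monolayer on plastic without Matrigel. RNA was taken 36 h after plating in both groups, all arrays come from this 1 line, the labels name no engineered change in it, and the labels call the replicates biological. The question behind the comparison was which genes are raised as cells build a lumen.

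Ligands of this family are secreted dimers that bring together type II and type I receptor kinases, which then phosphorylate SMAD transcription factors. TGF-beta and activin act mainly through SMAD2 and SMAD3, and BMPs through SMAD1, SMAD5 and SMAD9. Follistatin, the product of FST, binds activin and keeps it from its receptors, and betaglycan, the product of TGFBR3, presents TGF-beta, and TGF-beta 2 in particular, to the signalling receptors. In the kidney, activin is known for restraining the branching of tubules, BMP4 for patterning the early ureteric bud, and TGF-beta for driving epithelial cells towards a mesenchymal state.

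The arrays carried values on 2 scales. The 4 arrays of replicates 2 and 3 had medians of 7.06 to 7.08 on the log2 scale, and Pearson's r across probe sets, which are not independent replicates, was 0.982 to 0.997 among them. The 2 replicate 1 arrays had medians of 5.26 in 3D and 5.42 in 2D, and correlated with the other 4 at 0.861 to 0.872. The 3D minus 2D difference was therefore taken on replicates 2 and 3 (n = 2 arrays per group), and that of replicate 1 stands beside it as a value of 1 pair with no error. Over all probe sets the SD of this difference was 0.348 on replicates 2 and 3 and 1.25 in replicate 1, so that sizes cannot be carried from one scale to the other. Epithelial markers were bright, with 7 of 9 measured above the upper quartile of all 4 arrays, and their mean level was 11.35 and 11.28 in 3D against 11.34 and 11.37 in 2D. Of 7 measured kidney tubule markers 1, the cadherin gene CDH16, lay above the upper quartile of all 4 arrays, and the list averaged 7.38 and 7.43 in 3D and 7.50 and 7.35 in 2D. The fibroblast and mesenchymal list averaged 7.25 and 7.19 in 3D and 7.19 and 7.21 in 2D, where VIM, which cultured epithelial lines also express, was its 1 bright member, and COL1A2 lay below the lower quartile on all 4 arrays. In replicate 1 the epithelial, kidney tubule and fibroblast lists averaged 9.52, 5.12 and 3.82 in 3D and 10.18, 4.87 and 4.01 in 2D. Of the 36 measured markers of the 5 cell type lists 0 passed the limma threshold and 4 had an unadjusted p under 0.05. These were the epithelial genes OCLN (0.37), ESRP1 (-0.38) and GRHL2 (-0.41) and the leukocyte gene CD3E (0.34), with log2 differences on replicates 2 and 3. Poly-A spike-in controls averaged 9.20 and 8.43 in 3D and 8.28 and 8.34 in 2D, with 7.61 and 6.92 in the replicate 1 arrays, and the part of this difference in the results was not tested.

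Cells in 3D had less transcript of the ligand genes TGFB2, INHBA and BMP4 and of the activin antagonist FST, and more of the coreceptor TGFBR3. On replicates 2 and 3 TGFB2 was 4.89-fold lower on its brighter probe set, FST 4.72-fold, INHBA 3.90-fold and BMP4 3.41-fold. TGFBR3 was 1.69-fold and 1.88-fold higher on its brighter probe sets. On the same arrays TGFB1, TGFB3 and INHBB had overlapping groups, and both probe sets of BMP2 were lower in 3D by less. In replicate 1, on its other scale, TGFB2 was 6.59-fold lower, FST 5.24-fold, BMP4 2.11-fold and INHBA only 1.34-fold, and TGFBR3 was 1.92-fold and 1.45-fold higher. Among all replicate 1 differences these falls lay at the 3.16, 4.44, 17.7 and 38.2 percentiles, and the TGFBR3 rises at 84.7 and 75.8. In RNA from whole cultures, fewer cells that express a gene and less transcript per cell cannot be told apart. Of all 42924 probe sets, 6.61% passed a limma adjusted p of 0.05 (Benjamini-Hochberg over all probe sets), 2.96% lower and 3.65% higher in 3D. Of the 15 probe sets described here 5 were lower, 2 higher and 8 did not pass. The members were picked from this same contrast, so their counts and differences are a description without p-values. When replicate 2 or replicate 3 of 3D, or replicate 2 or replicate 3 of 2D, was left out, 1 residual degree of freedom remained, and the lone array was assumed to vary like the other group. Then 0 of all 42924 probe sets passed limma, the 15 included, with 4683 to 10892 of all at an unadjusted p under 0.05. In these fits INHBA still differed by -2.06 to -1.88 and BMP4 by -1.84 to -1.70.

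**Figure D1:**
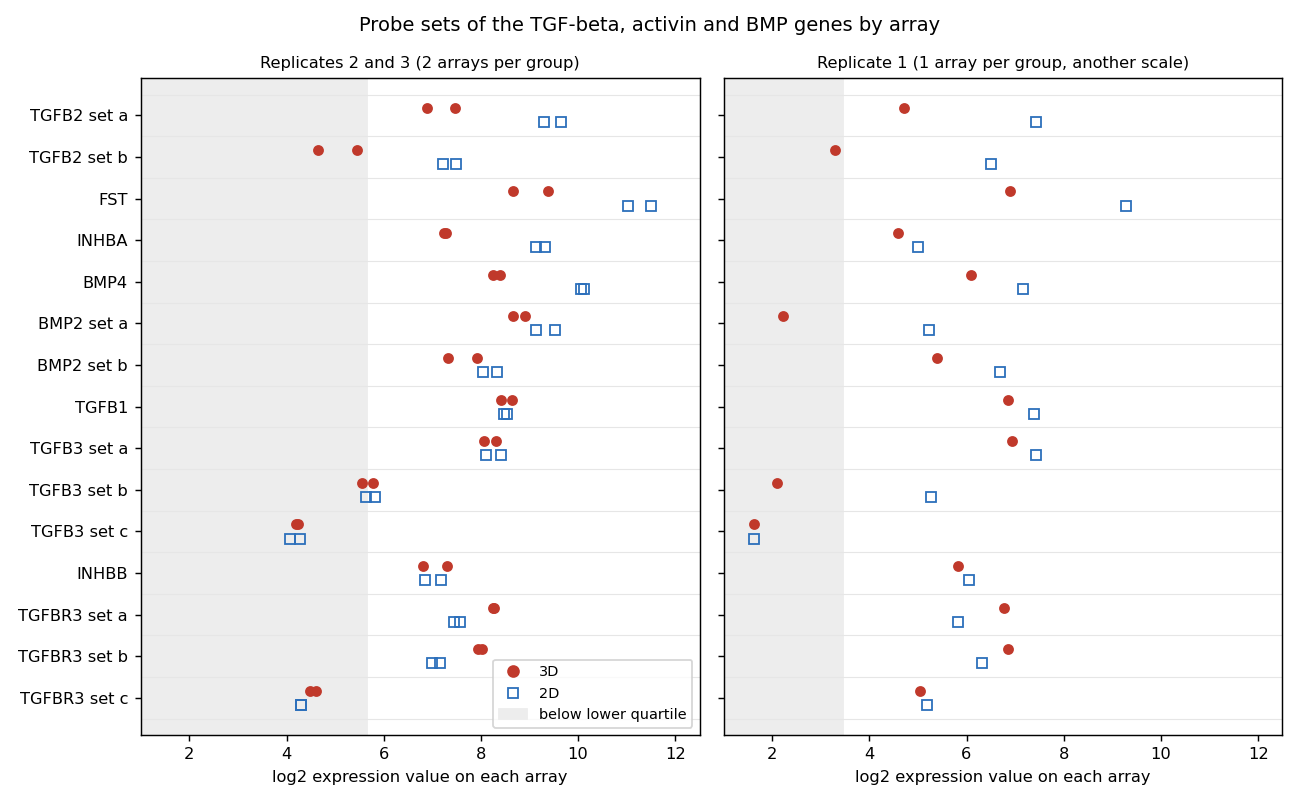
Log2 expression value of each probe set on each array, with 3D as filled circles above 2D as open squares. The left panel holds replicates 2 and 3, the right panel replicate 1 on its own scale, grey marks values below the arrays' lower quartile, and letters order a gene's probe sets from the brightest. The groups lie apart for TGFB2, FST, INHBA and BMP4, with 3D to the left, and for TGFBR3, with 3D to the right.

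TGFB2 encodes the TGF-beta ligand that depends most on betaglycan for binding to its receptors. Its brighter probe set read 6.90 and 7.47 in 3D and 9.30 and 9.65 in 2D. All values in 3D lay below all values in 2D, with a gap of 1.83 between the groups against at most 0.57 between arrays of 1 group. The mean was 7.19 ± 0.403 in 3D and 9.48 ± 0.247 in 2D (SD, n = 2 each), a log2 difference of -2.29 (SE 0.215). The dimmer probe set read 4.65 and 5.46 in 3D and 7.23 and 7.48 in 2D, a difference of -2.30 (SE 0.262). These probe sets thus gave nearly the same difference, although both 3D values of the dimmer one lay below the arrays' lower quartile, where the size of a difference is uncertain. Among all probe sets the differences ranked 8th and 7th from the lowest on replicates 2 and 3, and 1356th and 726th in replicate 1. In replicate 1 the brighter probe set read 4.71 in 3D and 7.43 in 2D (-2.72), and the dimmer one 3.29 and 6.51 (-3.22).

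The remaining TGF-beta ligand genes did not follow TGFB2. TGFB1, the most studied ligand of the family, read 8.63 and 8.41 in 3D and 8.53 and 8.47 in 2D, and the groups overlapped. Its log2 difference was 0.02 (SE 0.117), and the 4 differences between single 3D and 2D arrays ran from -0.12 to 0.16. TGFB3, known for palate fusion, had 3 probe sets. The brightest read 8.32 and 8.07 in 3D and 8.41 and 8.11 in 2D, a difference of -0.07 (SE 0.148). The other 2 gave -0.07 (SE 0.126) and 0.04 (SE 0.112), the dimmest with all 4 values below the lower quartile, and the groups overlapped on every TGFB3 probe set. In replicate 1 TGFB1 differed by -0.54 and the brightest TGFB3 probe set by -0.50, against a median of -0.14 over all probe sets. The middle TGFB3 probe set read 2.10 in 3D and 5.27 in 2D in replicate 1, a difference of -3.17 that replicates 2 and 3 did not share; its 3D value lay below that array's lower quartile.

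INHBA encodes the beta A subunit, 2 copies of which form activin A. It read 7.25 and 7.28 in 3D and 9.32 and 9.14 in 2D. The groups lay 1.86 apart, while arrays of 1 group differed by 0.03 in 3D and 0.18 in 2D. The mean was 7.27 ± 0.0212 in 3D and 9.23 ± 0.127 in 2D (SD, n = 2 each), a log2 difference of -1.97 (SE 0.110) that ranked 19th from the lowest of all probe sets. Replicate 1 gave the same sign but read 4.58 in 3D and 5.00 in 2D, a difference of -0.42. That value lay at the 38.2 percentile of all replicate 1 differences, so replicate 1 did not set INHBA apart.

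INHBB encodes the beta B subunit of activin B and inhibin B. It read 6.81 and 7.30 in 3D and 7.17 and 6.84 in 2D. The groups overlapped, with a log2 difference of 0.05 (SE 0.195), and the pair of 3D arrays differed by more (0.49) than the group means. In replicate 1 it differed by -0.23. The 2 activin subunit genes thus gave unlike values on replicates 2 and 3, -1.97 and 0.05.

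FST encodes follistatin, and had 1 probe set. It read 9.39 and 8.65 in 3D and 11.49 and 11.03 in 2D, and the groups lay 1.64 apart. The mean was 9.02 ± 0.523 in 3D and 11.26 ± 0.325 in 2D (SD, n = 2 each), a log2 difference of -2.24 (SE 0.268), ranked 9th from the lowest. Arrays of 1 group differed by as much as 0.74, so the size was less certain than that of INHBA or BMP4: leaving out 1 array at a time gave -2.61 to -1.87. In replicate 1 FST read 6.90 in 3D and 9.29 in 2D, a difference of -2.39, ranked 1907th from the lowest there. On replicates 2 and 3 the activin subunit gene and the gene of its antagonist were therefore both lower in 3D.

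BMP4 read 8.25 and 8.39 in 3D and 10.05 and 10.13 in 2D. Arrays of 1 group differed by at most 0.14 and the groups lay 1.66 apart. The mean was 8.32 ± 0.0990 in 3D and 10.09 ± 0.0566 in 2D (SD, n = 2 each), a log2 difference of -1.77 (SE 0.107), ranked 32nd from the lowest. In replicate 1 it read 6.09 in 3D and 7.17 in 2D, a difference of -1.08. That value lay at the 17.7 percentile of all replicate 1 differences.

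BMP2 encodes the closest relative of BMP4 among these ligands. Its brighter probe set read 8.91 and 8.66 in 3D and 9.52 and 9.14 in 2D, a log2 difference of -0.55 (SE 0.162). The dimmer one read 7.92 and 7.32 in 3D and 8.33 and 8.04 in 2D, a difference of -0.57 (SE 0.214). The groups did not overlap on either, but by gaps of 0.23 and 0.12, less than the spread within a group, and neither passed limma over all probe sets. Such a separation is common here: 26.7% of all probe sets had both 3D values below both 2D values. In replicate 1 the differences were -2.99 and -1.30, the first with its 3D value of 2.23 below the lower quartile. Among all probe sets of each scale the brighter one lay at the 2.31 percentile in replicate 1 and the 3.99 percentile on replicates 2 and 3, and the dimmer one at 13.8 and 3.68.

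TGFBR3 was the gene of the set that was higher in 3D. Its brightest probe set read 8.25 and 8.27 in 3D and 7.44 and 7.56 in 2D, and the groups lay 0.69 apart. The log2 difference was 0.76 (SE 0.103). A second probe set read 8.03 and 7.94 in 3D and 7.16 and 6.99 in 2D, a difference of 0.91 (SE 0.111). The third, with all 4 values below the lower quartile, read 4.48 and 4.60 in 3D and 4.30 and 4.29 in 2D (0.25, SE 0.102, not passed). In replicate 1 the differences were 0.94, 0.54 and -0.15, at the 84.7, 75.8 and 49.6 percentiles of all replicate 1 differences. The rises of 0.76 and 0.91 were smaller than the falls of TGFB2, FST, INHBA and BMP4 but larger than those of BMP2. On replicates 2 and 3 they ranked 1057th and 673rd from the highest of all probe sets.

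**Figure D2:**
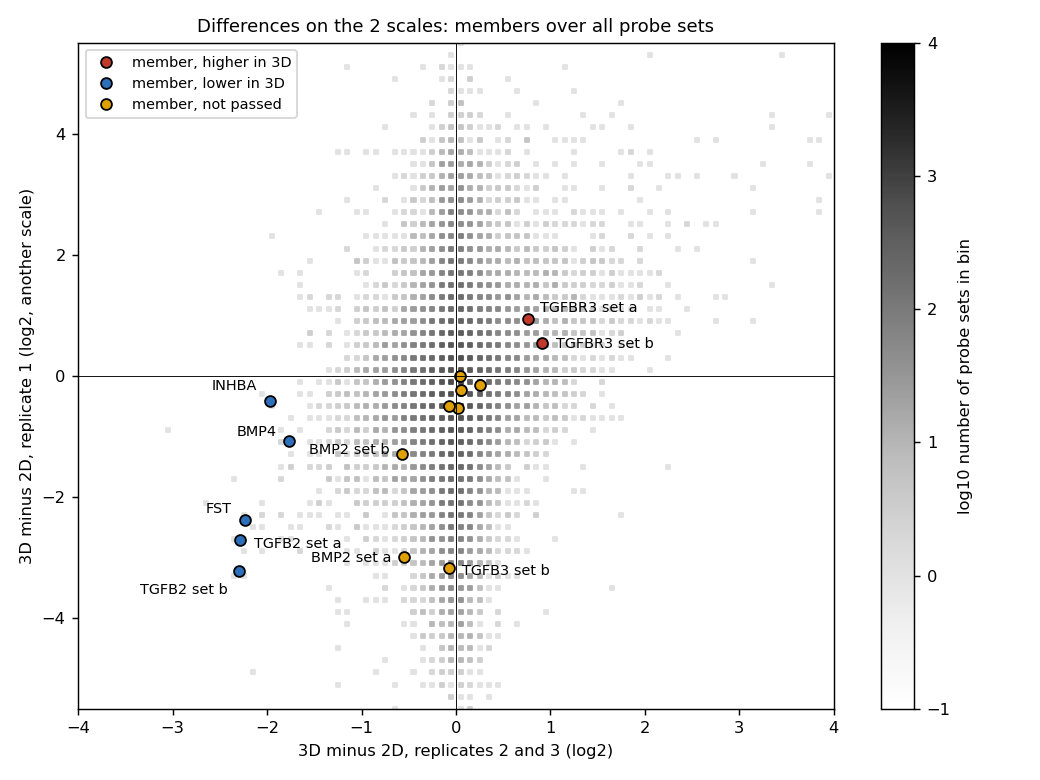
Log2 difference 3D minus 2D of replicates 2 and 3 (horizontal) against that of replicate 1 (vertical, another scale); grey squares are bins of the probe sets that lie within the axes, shaded by their number, and circles are the probe sets of the genes described. TGFB2 and FST lie low on both axes, INHBA lies low on the horizontal axis with -0.42 on the vertical one, and 1 TGFB3 probe set lies low in replicate 1 alone.

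Over the 15 probe sets the median log2 difference was -0.07 on replicates 2 and 3, against 0.00 over all probe sets, and -0.54 in replicate 1, against -0.14. The set thus did not move as a block: 4 genes were lower, 1 was higher and 4 had no probe set that passed. The last include BMP2, which was lower on both its probe sets. Of all genes, each by its brightest probe set, 3.12% were lower and 4.17% higher, whereas a member counts here by any of its probe sets. On replicates 2 and 3 both 3D values lay below both 2D values for 7 of the 15 probe sets, against 26.7% of all, and above them for 3, against 25.1% of all. In replicate 1, 12 of the 15 were below 0, against 55.9% of all probe sets. At least a 2-fold lower value on both scales was seen for 4 of the 15, namely both TGFB2 probe sets, FST and BMP4, and for 0.326% of all probe sets. This count uses the values that chose the genes and is a description. The cut is less strict in replicate 1, where differences spread more widely. BMP4 met it there narrowly (-1.08), and missed it with that pair median centred (-0.92) or all 6 arrays quantile normalized (-0.95). The 3' minus 5' difference of the actin and GAPDH controls, a sign of RNA integrity, was larger on both 3D arrays than on both 2D arrays of replicates 2 and 3 for 2 of 4 control pairs, the largest 3D value of these 2 being 0.40 and the largest 2D value 0.20. Another pair, for actin, gave 0.57 and 0.76 in 3D and 0.71 and 0.89 in 2D. In replicate 1 the 4 pairs ran from -0.08 to 2.90 in 3D and from -0.29 to 2.17 in 2D, on the other scale. Its part in the differences was not tested.

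The rest of the pathway was described with 5 lists of other genes, not picked for how they moved, though the values of LOX, CCN2 and ITGB6 were known. Each gene stands by its brightest probe set. Of 97 measured genes 87 did not pass, 8 fell and 2 rose in 3D, a share of 10.3% called. Of all 15115 genes 7.28% were called, 3.12% lower and 4.17% higher. Without LOX, CCN2 and ITGB6, 5 of 94 genes fell and 2 rose, a share of 7.45%, which is near that of all genes. The lists' median log2 differences lay between -0.18 and 0.04, against -0.01 over all genes.

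Among 19 other ligand genes GDF11, which encodes a relative of myostatin, was higher and 18 did not pass. GDF11 read 7.04 and 6.82 in 3D and 6.26 and 6.19 in 2D, a log2 difference of 0.71 (SE 0.117, limma adjusted p = 0.0276), and replicate 1 gave 1.36. Among 16 receptors and coreceptors ACVR1, a type I receptor of BMPs, was higher and 15 did not pass. ACVR1 read 10.67 and 10.71 in 3D and 10.11 and 9.89 in 2D (0.69, SE 0.116, limma adjusted p = 0.0284), but -0.70 in replicate 1, and its second probe set did not pass (0.34). The TGF-beta receptor genes are named here although their brightest probe sets did not pass. These differed by -0.43 for TGFBR2 (limma adjusted p = 0.0724) and 0.39 for TGFBR1 (limma adjusted p = 0.233). Of the 6 TGFBR2 probe sets, however, 2 passed. As the mean of its probe sets TGFBR2 differed by -0.57 (limma adjusted p = 0.0575).

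Of 30 extracellular binders and activators 5 were lower, 0 were higher and 25 did not pass. LTBP1, which tethers latent TGF-beta to the matrix, read 7.04 and 7.03 in 3D and 7.91 and 8.37 in 2D (-1.11, SE 0.164, limma adjusted p = 0.0207). ITGB6, the subunit of an integrin that activates latent TGF-beta 1 and 3, read 8.24 and 8.96 in 3D and 10.07 and 9.79 in 2D (-1.33, SE 0.242, limma adjusted p = 0.0342). A second of its 5 probe sets passed (-1.01, limma adjusted p = 0.0386), and the other 3 gave 0.12, -0.13 and 0.05. THBS1, which encodes thrombospondin 1, another activator of latent TGF-beta, read 12.67 and 12.54 in 3D and 13.22 and 13.30 in 2D (-0.66, SE 0.106, limma adjusted p = 0.0257), and its other 2 probe sets did not pass (-0.40 and -0.47, limma adjusted p = 0.0708 and 0.0700). In replicate 1 LTBP1, ITGB6 and THBS1 differed by -0.63, -0.46 and -2.27. Their relatives in the list, named after their values were seen, did not pass: LTBP2, LTBP3 and LTBP4 differed by -0.05, 0.33 and 0.11, and the integrin subunit genes ITGAV and ITGB8 by 0.25 and -0.24. The follistatin-like gene FSTL1 differed by -1.10 (SE 0.232, limma adjusted p = 0.0490) and the BMP antagonist gene CHRD, which encodes chordin, by -0.69 (SE 0.143, limma adjusted p = 0.0472). Their values were close to the threshold. A second of the 3 FSTL1 probe sets passed (-1.21), whereas the second CHRD probe set gave 0.05. As the mean of their probe sets ITGB6 (limma adjusted p = 0.0772), FSTL1 (0.0609) and CHRD (0.104) did not pass.

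Of 18 SMAD and intracellular regulator genes PMEPA1 was lower and 17 did not pass. PMEPA1 is induced by TGF-beta and encodes a protein that sequesters SMAD2 and SMAD3. All 3 of its probe sets were lower in 3D. The brightest read 8.72 and 8.99 in 3D and 9.53 and 9.62 in 2D (-0.72, SE 0.126, limma adjusted p = 0.0317). The other 2 gave -1.70 (SE 0.139, limma adjusted p = 0.00672) and -1.42 (SE 0.169, limma adjusted p = 0.0134), and replicate 1 gave -1.26, -2.82 and -2.12. Of the 8 SMAD genes 0 passed limma over all probe sets and 2 had an unadjusted p under 0.05.

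Of 14 widely used target genes 2 were lower, both with values known when the list was made, and 12 did not pass. LOX, which crosslinks collagen, read 7.48 and 7.12 in 3D and 9.74 and 9.23 in 2D (-2.19, SE 0.204, limma adjusted p = 0.00861). CCN2, a matricellular gene that YAP also controls, read 7.80 and 8.30 in 3D and 9.45 and 9.79 in 2D (-1.57, SE 0.199, limma adjusted p = 0.0150), with a second passing probe set at -1.29. The ID genes, which BMPs induce, are named here with their values already seen, although their brightest probe sets did not pass. In replicate 1 they went against the sign of BMP4. ID1, ID3 and ID4 differed by -0.15, 0.60 and 0.69 on replicates 2 and 3, with limma adjusted p of 0.720, 0.189 and 0.0569, and by 2.16, 2.64 and 3.50 in replicate 1. In the fit on probe set means per gene ID4 passed (limma adjusted p = 0.0466). ATOH8, of the same list, went the other way in replicate 1 (-3.78, with a 3D value of 0.68) and differed by 0.25 on replicates 2 and 3. Whether the 2 scales differ for these genes was not tested.

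**Figure D3:**
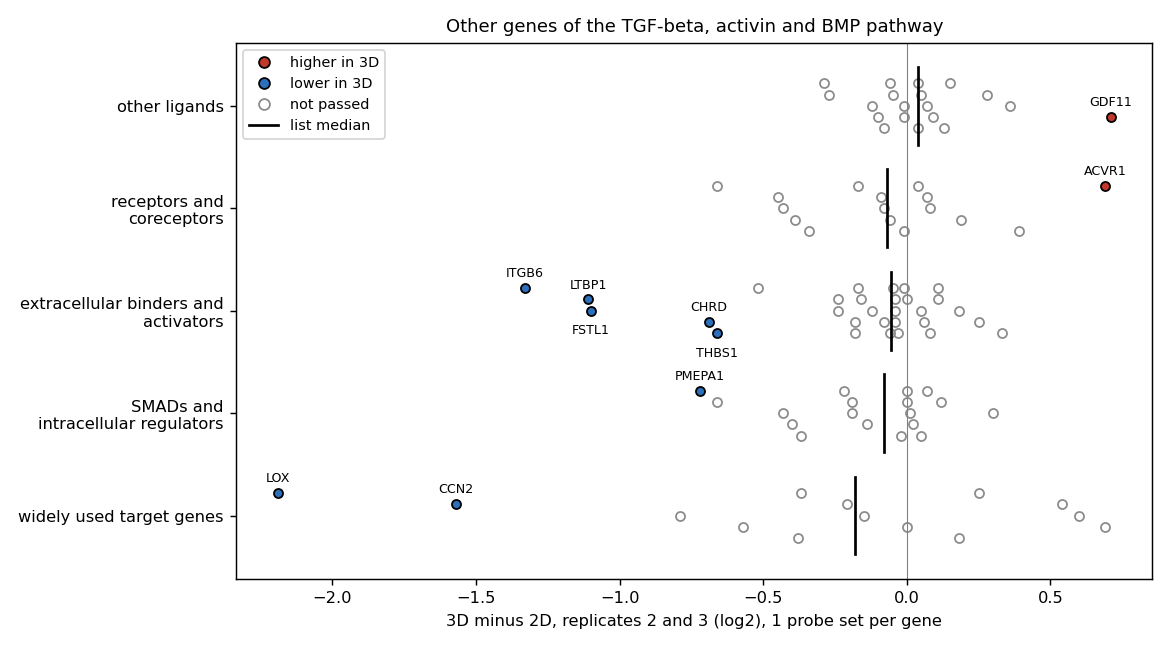
Log2 difference 3D minus 2D on replicates 2 and 3 for 97 other pathway genes, 1 circle per gene, by list, with the list's median as a bar. Filled circles passed a limma adjusted p of 0.05, and most genes lie near 0. Of the 8 lower genes 5 belong to the extracellular binders and activators, the largest list with 30 of the 97 genes. Among these 5 ITGB6 was known beforehand, and ITGB6, FSTL1 and CHRD did not pass as means of their probe sets. Of all genes 3.12% were lower.

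For each gene with a probe set that passed, the 3 genes of most similar values were taken by root mean square distance over 6 values, each array minus the mean of its own scale; a gene with several probe sets stands by the one of lowest adjusted p, the brighter one for TGFB2 and the second for TGFBR3. TGFB2 lay nearest to TIMP3, an inhibitor of metalloproteinases (distance 0.0866 log2 units), then to CCN1, a matricellular gene (0.140), and EDN1, the endothelin precursor (0.187). TIMP3 differed by -2.23 on replicates 2 and 3 and by -2.93 in replicate 1. FST lay farther from its nearest genes F3 (0.318), CCN1 (0.322) and STK17A (0.323). INHBA lay nearest to GADD45B (0.221), a stress-induced gene, NIPAL1 (0.236) and ESM1 (0.262). BMP4 lay nearest to NIPAL1 (0.106), STX11 (0.125) and TM4SF1 (0.126). TGFBR3 lay nearest to OGA (0.0323), the enzyme that removes O-linked N-acetylglucosamine, REPS2 (0.0427) and LXN (0.0540), whose differences of 0.85 to 0.91 stand beside 0.91 for that TGFBR3 probe set. CCN1 was shared by TGFB2 and FST, and NIPAL1 by INHBA and BMP4.

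**Figure D4:**
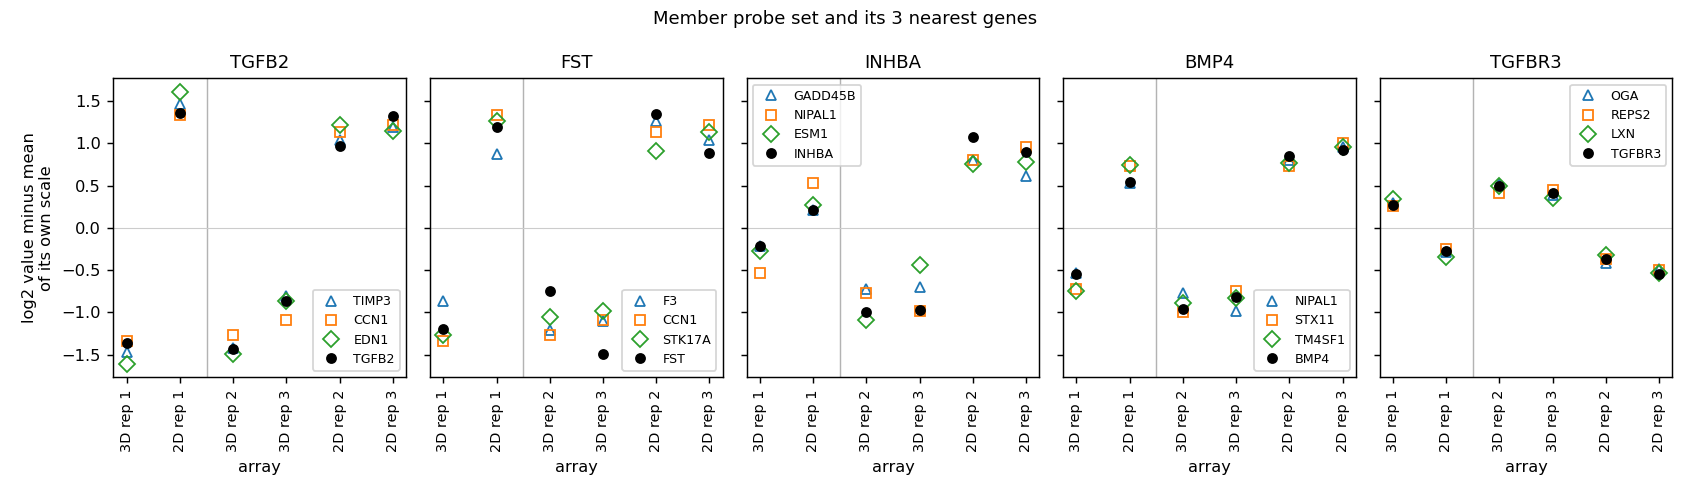
Log2 value minus the mean of its own scale on each array, for the member probe set (filled circles) and its 3 nearest genes (open symbols), with replicate 1 left of the line. TGFB2, BMP4 and TGFBR3 are followed closely by their neighbours, and FST is off from its neighbours on 3D replicates 2 and 3.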

How the data were processed

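Per the submitters' processing notes, RMA and limma were applied; neither a version nor the probe set definition is recorded in the sources used here. The deposited table holds log2 values, 1 per probe set and array, without detection calls. The log base rests on RMA and on the range of the values. The replicate 1 arrays had a minimum of -3.32, with 413 values below 0 in 3D and 246 in 2D. The other 4 arrays had minima of 3.39 to 3.44. The origin of the second scale of replicate 1 is unknown, so it is also unknown whether RMA gave those values. No genome build is named, so no positions are printed. Of 43035 probe sets 111 controls were dropped. In the platform annotation 29254 of the rest had 1 symbol, 439 several and 13231 none; 0 symbols differed from the dog gene table (UU_Cfam_GSD_1.0).

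The arrays of replicates 2 and 3 were compared by limma (lmFit, eBayes; version 3.58.1, R 4.3.3) with a two-sided test, no block, Benjamini-Hochberg adjustment over 42924 probe sets and a threshold of 0.05. Standard errors are limma's. The code was tested on simulated data, and the number of arrays limits the precision. Each other pathway gene was represented by its brightest probe set over these 4 arrays, and named if it passed. Members, lists and tests were chosen with earlier results of these data known. Alternatives were all 6 arrays, a replicate block, other scalings, other priors, a filter on dim probe sets, probe set means per gene and leaving out each array. Tables and plots were made in Python 3.11.15 (pandas 2.3.3, numpy 2.4.6; matplotlib 3.10.9).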

Additional observations from a re-analysis of the deposited data

How the results depend on the processing

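The counts of calls rested on the 4 arrays of replicates 2 and 3 analysed without a block: 7 of the 15 probe sets, 10 of 97 other pathway genes and 2837 of all probe sets. Quantile normalization again, median centring, trend and robust priors and leaving out dim probe sets kept each count within 1.5 times, as did averaging the probe sets of each pathway gene (8) and, chosen after seeing the data, leaving out LOX, CCN2 and ITGB6 (7). Averaging did change which genes passed, with 5 lower and 3 higher: ITGB6, FSTL1 and CHRD dropped out and ID4 came in as higher. With all 6 arrays without a block, all 6 with a replicate block or 4 with a replicate block, limma called 0 of each (at an unadjusted p under 0.05, 105, 2723 and 8325 of all). With all 6 quantile normalized it called 0, 0 and 2. Leaving out any 1 array gave 0 to 0 for each count. The cause of these losses was not tested. The fits without 1 array and the fit of 4 arrays with a block had fewer residual degrees of freedom than the main fit. The fits of all 6 arrays did not, but held the replicate 1 arrays. Within replicates 2 and 3 the replicate numbers gave no sign of pairing, with a correlation of 0.001 between deviations of same-numbered arrays. The replicate 1 arrays, which share another scale, were not part of this check. The 7 called differences kept their sign in all 84 values under these alternatives, and 75 moved by less than 1 SD. Much of this was fixed in advance and does not show stability. The groups of all 7 did not overlap, so leaving out 1 array could not change a sign. The replicate block on 4 arrays, other priors and the dim filter leave a difference unchanged. Over the alternatives INHBA ranged from -2.06 to -1.41 and BMP4 from -1.84 to -1.51. Of the 15 replicate 1 differences, 13 kept their sign under both rescalings of that pair.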
